A study of Mus musculus with 21 samples.

Results

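The comparison described here asks how transcription stood after 4 h of raised network activity in mouse cortical cultures in which the histone methyltransferase MLL1 was inhibited. It sets 3 libraries with bicuculline against 2 libraries with water, 5 of the 21 libraries of the series, each placed by the description in its labels. The cultures were primary cortical cultures of CD1 mice, of mixed sex, at day 17 in vitro. All 5 had been preincubated for 30 min with 25 µM MM401, which stayed the shared background of both groups. The bicuculline group then received 40 µM bicuculline-methiodide, and its control received sterile water. Bromouridine at 2 mM was present over the last 30 min in both. The third library of the water group was left out by the rule of the comparison, because it held 316741 counts against 55471272 to 64517268 in the other 5. The 6 libraries of such cultures without the inhibitor (DMSO as solvent, 4 h) and the 6 with MM401 at 1 h serve for tests of a difference from the main response. They and 3 libraries of DMSO with bicuculline for 1 h also entered the fit, so that 20 libraries in 7 groups share its estimate of the spread.

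Bicuculline blocks GABA-A receptors, the main inhibitory receptors of the cortex, and so lets recurrent excitation run unchecked. Calcium entry then drives a first wave of genes through transcription factors already present, many of them encoding further transcription factors, and a later wave of secreted factors, channels and synaptic proteins. Over a longer time neurons scale their synapses and excitability against the raised activity. MM401 blocks the contact of MLL1 (Kmt2a) with WDR5, on which the methylation of histone H3 lysine 4 by the MLL1 complex depends. In BrU-seq, cells build bromouridine into the RNA made during the labelling window, and that RNA is captured and sequenced. The values therefore follow RNA synthesis more closely than RNA stock.

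Levels are given as CPM, counts relative to the library total after edgeR's TMM scaling. A gene was called when its edgeR adjusted p (Benjamini-Hochberg over 16959 genes) was below 0.05, and changes are log2 fold changes of bicuculline over water with their SE. The 3 bicuculline libraries held 64112385, 55792879 and 64517268 counts in genes and the 2 water libraries 55471272 and 56024323. Log2 CPM correlated at 0.994 to 0.995 between libraries of one group and at 0.981 to 0.983 across groups, over genes. The labels call the 3 libraries of a group biological replicates but do not say from which animals or preparations they came. The assay was done on whole cultures, so fewer cells of a type and less RNA per cell cannot be told apart.

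At 4 h, 7572 genes were called (44.6% of those tested). Of these, 3898 were higher with bicuculline and 3674 lower, 23% and 21.7% of all genes tested. At least 2-fold changes were called for 618 genes upward (3.64%) and 378 downward (2.23%). The CPM of the 3 bicuculline libraries and the 2 water libraries did not overlap for 11289 genes, 66.6% of all tested. The balance of directions depended on the scaling: with plain library size in place of TMM, 2794 genes were higher and 4138 lower. The median log2 fold change of all genes was 0.016 with TMM and -0.059 with plain library size.

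The largest of the increases were those of Nts and Serpinb2. Nts, on chromosome 10 (102481755 to 102490418, mm10), encodes the precursor of neurotensin. It stood at 0.711 and 0.653 CPM in the water libraries and at 13.6, 12.6 and 13.6 CPM in the bicuculline libraries, which is an increase of 4.28 ± 0.16 (log2; edgeR adjusted p = 6.14e-14). Serpinb2 (chromosome 1, 107511422 to 107525600) encodes a serine protease inhibitor. It went from 0.485 and 0.361 CPM to 8.84, 8.21 and 6.68 CPM, by 4.22 ± 0.33 (edgeR adjusted p = 5.58e-09). In both genes each bicuculline library lay more than 10-fold above each water library. Areg (chromosome 5, 91139598 to 91148432) and Nms (chromosome 1, 38939148 to 38950276) encode amphiregulin, a ligand of the EGF receptor, and the peptide neuromedin S. Areg had only 4 and 23 counts in the water libraries, against 178, 136 and 141 with bicuculline, so that its change of 3.42 ± 0.34 rests on few reads. It was 2.64 without water replicate 1 and 5.10 without water replicate 2. Nms went from 0.555 and 0.911 CPM to 4.60, 7.11 and 5.15 CPM, by 2.93 ± 0.30.

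These 4 genes are the ones among the 12 whose RefSeq promoter holds a letter match to an AP-1 site or a cAMP response element (CRE). Their 250 bases before the annotated start (RefSeq, GRCm38.p6, the build called mm10) are printed here 5′ to 3′ on the strand of the gene, with the matches in capitals. For Serpinb2 the first of 2 listed starts is shown. The windows of Serpinb2, Areg and Nms end on the position given above as the start of the gene, which was taken from the count table.
Nts, chr10:102490419-102490668, minus strand: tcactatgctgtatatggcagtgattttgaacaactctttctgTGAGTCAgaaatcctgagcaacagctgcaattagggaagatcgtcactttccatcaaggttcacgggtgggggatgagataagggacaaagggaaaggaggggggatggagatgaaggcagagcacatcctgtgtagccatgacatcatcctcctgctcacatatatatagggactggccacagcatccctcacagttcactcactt
Serpinb2, chr1:107511173-107511422, plus strand: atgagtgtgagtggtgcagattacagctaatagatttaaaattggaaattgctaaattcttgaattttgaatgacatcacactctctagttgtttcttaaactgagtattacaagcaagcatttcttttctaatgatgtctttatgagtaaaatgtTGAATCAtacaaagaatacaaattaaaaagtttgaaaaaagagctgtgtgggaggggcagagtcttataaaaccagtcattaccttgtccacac
Areg, chr5:91139349-91139598, plus strand: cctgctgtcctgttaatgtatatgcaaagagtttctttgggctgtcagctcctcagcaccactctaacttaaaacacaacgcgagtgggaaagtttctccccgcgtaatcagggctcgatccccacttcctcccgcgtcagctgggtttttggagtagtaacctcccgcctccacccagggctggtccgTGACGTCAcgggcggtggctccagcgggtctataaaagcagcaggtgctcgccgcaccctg
Nms, chr1:38938899-38939148, plus strand: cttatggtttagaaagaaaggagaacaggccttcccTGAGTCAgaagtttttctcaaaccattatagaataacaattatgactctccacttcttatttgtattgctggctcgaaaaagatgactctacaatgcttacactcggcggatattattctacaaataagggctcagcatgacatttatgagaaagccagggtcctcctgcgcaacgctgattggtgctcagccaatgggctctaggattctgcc

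The AP-1 letters searched were TGANTCA, where N is any base, and those of the CRE were TGACGTCA. Both read the same on either strand, and neither contains the other. In Nts, Serpinb2 and Nms the AP-1 match begins 207, 94 and 214 bases before the start, and in Areg the CRE match begins 61 bases before it. AP-1 is the dimer formed by Fos and Jun proteins. Of the genes at least 2-fold higher, 444 of 618 had a listed promoter, and 64 of their 538 windows (11.9%) held the AP-1 letters. The share was 4.98% of 16458 windows over all genes tested and 6.56% of 320 windows of the genes at least 2-fold lower. The CRE letters stood in 3.35%, 2.37% and 0.625% of the same windows, the last being 2 of 320, and in 1.95% of 3753 windows of all genes called lower. Letters of the EGR site (GCGTGGGCG, either strand) were found in 1.12% of the windows of the higher genes and 0.93% of all. For the serum response element the shares were 1.49% and 1.16%, and for the E-box (CACGTG) 9.29% and 7.80%. Over all genes called higher, with no minimum of fold, the AP-1 share was 6.18%. A gene may have several windows, and a match is only a run of letters.

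A further 4 of the 12 largest increases were in genes of transcription factors. Fosb (chromosome 7, 19302695 to 19310045), a partner of Jun proteins in AP-1, went from 3.14 and 4.81 CPM in water to 60.0, 53.7 and 51.7 CPM (3.79 ± 0.19, edgeR adjusted p = 9.02e-11). Npas4 (chromosome 19, 4984353 to 4989971), a neuronal factor that responds to calcium, went from 27.1 and 30.6 CPM to 335, 295 and 256 CPM (3.36 ± 0.21, edgeR adjusted p = 4.28e-09). Klf4 (chromosome 4, 55527136 to 55532475) rose by 3.25 ± 0.18 from a low level of 0.503 and 0.602 CPM. Atf3 (chromosome 1, 191170296 to 191183333), a stress-responsive member of the ATF family, rose from 9.39 and 8.78 CPM to 84.2, 73.6 and 81.4 CPM, by 3.13 ± 0.12. No promoter of these 4 held the AP-1 or CRE letters in the window searched, which says nothing of binding elsewhere.

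Inhba (chromosome 13, 16011850 to 16031609) encodes the subunit of activin A. Its water libraries stood at 18.5 and 32.4 CPM and its bicuculline libraries at 245, 241 and 265 CPM (3.30 ± 0.31, edgeR adjusted p = 1.1e-06). Inhba overlaps B230303A05Rik on the opposite strand, and the use of strand in counting is not given in the sources used here, so its count is uncertain. Ifrd1 (chromosome 12, 40203128 to 40223189), a transcriptional coregulator, had the highest CPM of the 12, not scaled for gene length, and was among the tightest. It went from 85.1 and 94.5 CPM to 634, 622 and 645 CPM, by 2.82 ± 0.12 (edgeR adjusted p = 1.86e-13). Pim1 (chromosome 17, 29490784 to 29496110), a serine/threonine kinase, went from 1.96 and 2.10 CPM to 13.2, 13.8 and 13.5 CPM, by 2.73 ± 0.14. Hspa1b (chromosome 17, 34956428 to 34959238), a heat shock protein of the HSP70 family, rose by 3.02 ± 0.35. Its near-identical copy Hspa1a lies 10119 bases away, so reads may be split between them.

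The largest of the decreases were those of Adora2a and Drd2. Adora2a (chromosome 10, 75316876 to 75334792) encodes an adenosine receptor coupled to cAMP synthesis. It stood at 6.52 and 7.12 CPM in water and at 0.897, 1.01 and 1.30 CPM with bicuculline (-2.67 ± 0.18, edgeR adjusted p = 1.72e-10). Drd2 (chromosome 9, 49340402 to 49408168) encodes the dopamine D2 receptor, which the same striatal neurons carry in the intact brain. It fell from 39.6 and 43.8 CPM to 9.44, 9.0 and 8.08 CPM (-2.24 ± 0.09, edgeR adjusted p = 1.12e-13). Ntsr1 (chromosome 2, 180499975 to 180544979) encodes a receptor of neurotensin and fell from 11.6 and 10.3 CPM to 2.69, 2.52 and 2.20 CPM (-2.15 ± 0.14, edgeR adjusted p = 1.77e-10). The gene of its ligand, Nts, was thus the largest increase and the receptor gene among the 6 largest decreases.

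Scn4b (chromosome 9, 45138623 to 45154156), an auxiliary subunit of sodium channels, fell from 5.18 and 5.07 CPM to 1.14, 0.991 and 1.18 CPM (-2.21 ± 0.18). Oacyl (chromosome 18), an acyltransferase-like gene, fell by 2.16 and Map3k21 (chromosome 8), a kinase of the MAP kinase cascades, by 2.01 on the log2 scale. Accsl, Vmn2r56, Mannr, C8b, Fyb2 and Aox4 completed the list, with log2 changes of -2.18 to -1.88. Of the 12, 10 had a mean below 10 CPM in water. Vmn2r56 belongs to the large vomeronasal receptor family, whose copies can share reads. C8b begins 21471 bases past the end of Dab1 on the same strand, so whether reads of C8b come from transcription of its own was not tested. No overlap between the groups was a condition for all 24 genes.

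**Figure D1:**
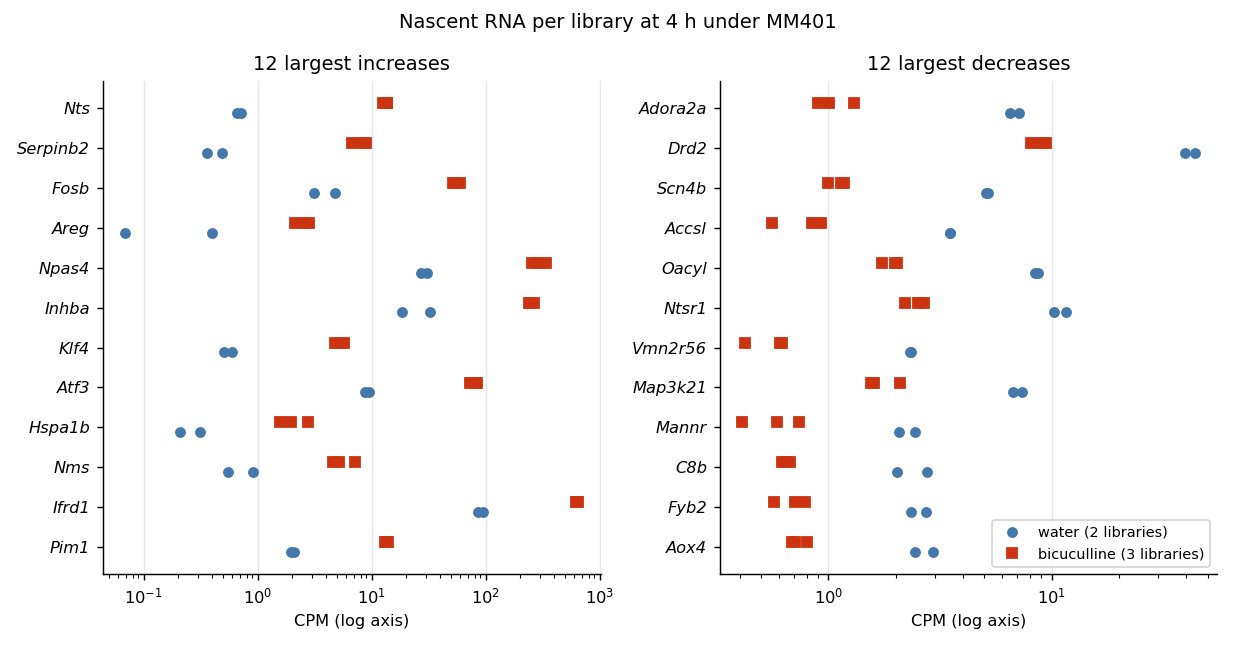
CPM (log axis) of the 12 largest increases and 12 largest decreases at 4 h under MM401, with a circle for each of 2 water libraries and a square for each of 3 bicuculline libraries. The groups do not overlap for any of the 24 genes; Nts moves from 0.653 to 0.711 CPM up to 12.6 to 13.6 CPM, and Drd2 from 39.6 to 43.8 CPM down to 8.08 to 9.44 CPM.

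The rapid transcription factors, the first wave of the response, were still raised at 4 h. Of 25 tested, 20 were higher and 3 lower, with a median log2 fold change of 1.25 against 0.016 for all genes. Over all genes 23% were higher and 21.7% lower, so the number lower is no excess. Fos, the founding member of AP-1, went from 29.6 and 39.1 CPM to 111, 110 and 106 CPM (1.67 ± 0.20, edgeR adjusted p = 5.91e-06). The orphan receptor Nr4a1 went from 25.9 and 33.8 CPM to 124, 109 and 107 CPM (1.93 ± 0.11). The 3 that fell were Egr3, Klf10 and Egr1. Egr3 (chromosome 14, 70077444 to 70082613), a zinc finger factor of the Egr family, fell from 18 and 21.2 CPM to 8.44, 9.54 and 9.06 CPM (-1.12 ± 0.11, edgeR adjusted p = 5.73e-08). Klf10 changed by -1.11 ± 0.13. Egr1 stood at 70.3 and 87.8 CPM in water and at 63.4, 64.1 and 65.7 CPM with bicuculline (-0.30 ± 0.11, edgeR adjusted p = 0.0334). Leaving out 1 library at a time lost its call in 4 of 5 cases, with values of -0.47 to -0.16. Egr4 went the other way, from 1.92 and 3.66 CPM to 4.23, 4.51 and 4.16 CPM (0.62 ± 0.21, edgeR adjusted p = 0.0253). Its call was lost without bicuculline replicate 2 or water replicate 1 (0.21 to 1.13 without single libraries). It was also lost with plain library size and with an offset for gene length.

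Of 17 feedback genes of MAP kinase signalling 11 rose and 2 fell (median 0.39), beside 23% higher and 21.7% lower over all genes. Without water replicate 1, 8 were called higher and the median was 0.15. The phosphatase gene Dusp1, whose product switches off MAP kinases, went from 12.4 and 15.4 CPM to 60.2, 62.0 and 58.6 CPM (2.12 ± 0.14, edgeR adjusted p = 8.18e-10). Dusp14 rose by 1.33 ± 0.09, Dusp4 by 0.89 ± 0.10 and Dusp10 by 0.88 ± 0.10, whereas Dusp7 (-0.60 ± 0.16) and Spred3 (-0.31 ± 0.08) fell. In the cAMP and CREB pathway 9 of 22 genes rose and 6 fell (median 0.11), where 23% of all genes tested rose and 21.7% fell, so the number lower is near that background. The 4 largest rises were those of Rgs2, a regulator of G-protein signalling (1.69 ± 0.15), of the salt-inducible kinases Sik1 (1.36 ± 0.10) and Sik2 (1.20 ± 0.14), which hold the CREB coactivators in the cytoplasm, and of Crem (1.18 ± 0.07). The coactivator genes Crtc1 (-0.61 ± 0.08) and Crtc2 (-0.42 ± 0.10) and the adenylyl cyclase genes Adcy1 (-0.57 ± 0.10) and Adcy2 (-0.41 ± 0.07) fell.

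Genes of secreted factors were set beside the 23% higher and 21.7% lower of all genes. Of 24 growth factor and activin genes, 13 rose and 2 fell (median 0.48). Bdnf (chromosome 2, 109674699 to 109727043), a neurotrophin that strengthens synapses, went from 231 and 273 CPM to 1332, 1420 and 1393 CPM (2.45 ± 0.12, edgeR adjusted p = 2.94e-12). Fgf10, a fibroblast growth factor, rose by 2.53 ± 0.19 from below 1 CPM. Fst encodes follistatin, which binds activins, and rose by 2.00 ± 0.20 beside the activin gene Inhba. Inha, the gene of the inhibin subunit, fell (-0.78 ± 0.16), and so did Stc1 (-0.61 ± 0.11). Of 18 neuropeptide genes, 12 rose and 1, Nmb, fell (-0.60 ± 0.19), with a median of 0.99. After Nts the largest rises within this list, which does not hold Nms, were those of Cartpt (3.50 ± 0.43, from 0.104 and 0.0344 CPM), Penk, the precursor of enkephalins (2.15 ± 0.15, from 14.9 and 13.4 to 58.0, 64.6 and 65.7 CPM), and Crh (1.99 ± 0.48). Cartpt had 6 and 2 counts in the water libraries, and its change was 4.45 without water replicate 1 and 2.89 without water replicate 2. The call of Nmb was lost without bicuculline replicate 1 or water replicate 2 (-0.73 to -0.49 without single libraries), and that of Crh without water replicate 1 (1.33 to 3.16).

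The machinery that processes and stores peptides was considered next. Of 11 secretory granule genes 8 rose and none fell (median 0.34), beside 23% higher and 21.7% lower over all genes. Without water replicate 1 only 5 were called higher, and with plain library size 6 were higher and 1 lower. The prohormone convertase gene Pcsk1 went from 62.8 and 67.3 CPM to 236, 253 and 220 CPM (1.86 ± 0.12, edgeR adjusted p = 1.19e-10). Scg2 (1.31 ± 0.33), Pam (0.86 ± 0.12), Scg3 (0.65 ± 0.13), Vgf (0.62 ± 0.14), Cpe (0.34 ± 0.07), Chga (0.31 ± 0.12) and Scg5 (0.17 ± 0.06) rose too. The values of Chgb, Pcsk1n and Pcsk2, which were not called, were 0.18, -0.13 and -0.22. Scg5 and Chga each lost the call in 3 of the 5 fits that left out a library (0.095 to 0.20 and 0.18 to 0.39), both water libraries among them, and Scg2 lost it without water replicate 1.

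Among 23 synaptic effectors of activity, 9 rose and 4 fell (median 0.31, and 0.14 without water replicate 2). Over all genes 23% rose and 21.7% fell, so the number lower is near that background. Nptx2, a secreted pentraxin that gathers AMPA receptors, went from 13.4 and 15.4 CPM to 48.6, 57.1 and 60.6 CPM (1.94 ± 0.12). Plk2, a kinase tied to the weakening of synapses after long activity, rose from 83.9 and 93.5 CPM to 245, 258 and 256 CPM (1.51 ± 0.09). Arc, which drives the uptake of AMPA receptors, went from 8.11 and 12.1 CPM to 26.0, 20.9 and 22.4 CPM (1.19 ± 0.18), and Rheb rose by 1.13 ± 0.09. The kinase genes Camk2a (-0.61 ± 0.09) and Camk2b (-0.60 ± 0.07) fell, as did Sipa1l1 (-0.35 ± 0.11, not called without water replicate 2) and Homer2 (-0.31 ± 0.06). Homer1, a scaffold whose short form is induced by activity, was at 468 and 524 CPM in water and at 654, 660 and 563 CPM with bicuculline. It was not called (0.33 ± 0.15, edgeR adjusted p = 0.0661), although the groups did not overlap, and was called without bicuculline replicate 3 (0.41).

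The glutamate receptor genes formed 3 small lists, each with members that rose and members that fell. Their counts stand beside 23% higher and 21.7% lower over all genes, and nothing is read from them about the lists. Of 9 AMPA and kainate receptor genes Gria2 rose (0.26 ± 0.10), and Gria1 (-0.37 ± 0.11), Grik3 (-0.41 ± 0.08) and Grik4 (-0.52 ± 0.08) fell. Values of the other 5 were -0.21 to 0.36. Gria2 was not called with RLE scaling, nor in 4 of the 5 fits without 1 library, bicuculline replicate 3 being the exception (0.21 to 0.31). Gria1 was not called without water replicate 1. With plain library size all 9 were called, 3 higher and 6 lower. Of 7 NMDA receptor genes Grin1 (0.29 ± 0.10) and Grin3a (0.23 ± 0.08) rose, and Grin2a (-0.62 ± 0.15) and Grin2d (-0.61 ± 0.21) fell. Grin1 was not called without bicuculline replicate 2 or water replicate 2 (0.11 to 0.43 without single libraries), nor Grin3a without these or bicuculline replicate 1 (0.086 to 0.33). Neither was called with plain library size, and Grin3a was also not called with DESeq2, with RLE scaling or with all 21 libraries. Grin2d was not called without bicuculline replicate 3 or water replicate 1 (-0.75 to -0.51). Of 7 metabotropic receptor genes Grm3 rose (0.27 ± 0.07), and Grm4 (-1.27 ± 0.15), Grm7 (-0.57 ± 0.20) and Grm2 (-0.49 ± 0.13) fell. The rise of Grm3 was not called without water replicate 2 (0.18) or with plain library size. Without water replicate 1 only 1 of these 7 was called lower, and 2 were without water replicate 2 or bicuculline replicate 3. Grm4 went from 23.6 and 21.6 CPM to 10.6, 8.06 and 9.43 CPM.

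Of the subunits of the receptor that bicuculline blocks, more were called higher than lower. Of 14 GABA-A receptor genes 8 rose and 2 fell (median 0.44), beside 23% higher and 21.7% lower over all genes. Without any 1 library 7 were called higher, except without bicuculline replicate 3, where 8 were. Gabrg1 went from 32.6 and 31.1 CPM to 75.1, 72.3 and 70.0 CPM (1.19 ± 0.10, edgeR adjusted p = 3.32e-09). Gabre rose by 1.17 ± 0.27, Gabrq by 1.04 ± 0.18 and Gabra2 by 0.90 ± 0.13. Gabrg3 (-0.66 ± 0.15) and Gabra3 (-0.33 ± 0.11) fell, the latter not called without bicuculline replicate 3 or water replicate 1.

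Among channel genes that set excitability, more sodium and calcium channel genes fell than rose. Of 25 sodium and calcium channel genes 15 fell and 2 rose (median -0.34), against 21.7% lower over all genes. Their summed level, which the most strongly labelled genes set, was 7150 and 7029 CPM in water and 6995, 7292 and 6250 CPM with bicuculline, so the groups overlapped. Besides Scn4b, the falls were largest for the T-type calcium channel gene Cacna1i (-0.92 ± 0.13), for Cacna1d (-0.89 ± 0.12), an L-type channel gene that went from 309 and 301 CPM to 169, 176 and 147 CPM, and for Hcn2 (-0.77 ± 0.13). The 2 that rose were Cacna2d1 (0.49 ± 0.13) and Scn3a (0.42 ± 0.08). Of 39 potassium channel genes 14 fell and 10 rose (median -0.02). The number higher is near the 23% of all genes, and the number lower stands beside 21.7%. Kcng1 (-1.87 ± 0.22), Kcnh3 (-1.56 ± 0.15), Kcns1 (-1.29 ± 0.42) and Kcnh2 (-1.04 ± 0.13) fell most. Kcnj2, an inward rectifier, rose from 14.9 and 14.4 CPM to 27.2, 30.4 and 31.5 CPM (1.02 ± 0.11), followed by Kcna4 (0.86 ± 0.13), Kcnd2 (0.59 ± 0.14) and Kcnj4 (0.57 ± 0.12). Their sums were 9480 and 9169 CPM in water and 9330, 9609 and 7812 CPM with bicuculline and overlapped too. Without water replicate 2 only 5 of the 39 were called higher, and Kcns1 and Cacna2d1 were not called.

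Of 33 receptor genes of neuromodulators 13 rose and 9 fell, beside 23% and 21.7% of all genes, with a median of 0.00077. The number lower is near that background. Beside Adora2a and Drd2, the somatostatin receptor gene Sstr3 (-1.22 ± 0.23) and the nociceptin receptor gene Oprl1 (-0.90 ± 0.14) fell. The other two somatostatin receptor genes named here rose, Sstr2 from 1.8 and 2.10 CPM to 5.49, 5.50 and 5.12 CPM (1.46 ± 0.12) and Sstr1 by 1.15 ± 0.17. Chrm2, a muscarinic receptor (1.09 ± 0.14), and Adra2a, an adrenergic receptor (1.03 ± 0.17), rose as well.

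Of 19 clock genes 13 rose and 1, Clock itself, fell (-0.18 ± 0.06), with a median of 0.36. Over all genes 23% were higher and 21.7% lower. Clock was not called without bicuculline replicate 3 or water replicate 2 (-0.22 to -0.16 without single libraries). Nfil3, a repressor of clock output genes, rose by 2.30 ± 0.11, Per1 by 1.06 ± 0.10, Cry1 by 0.81 ± 0.07 and Bhlhe40 by 0.62 ± 0.11. In cholesterol synthesis 11 of 22 rose and 7 fell, beside the same 23% and 21.7% of all genes. Hmgcs1, an early enzyme of the pathway, went from 92.5 and 88.6 CPM to 225, 234 and 214 CPM (1.31 ± 0.11). Msmo1 (1.04 ± 0.09), Pmvk (0.94 ± 0.10) and Cyp51 (0.88 ± 0.10) rose too, and Mvk (-0.73 ± 0.12), Scap (-0.52 ± 0.07), Dhcr7 (-0.36 ± 0.08) and Fdps (-0.32 ± 0.12) fell. Fdps was called in 1 of the 5 fits without a library, that without bicuculline replicate 3. The number lower was 3 without water replicate 1 and 4 without bicuculline replicate 1. Of 23 genes of endoplasmic reticulum folding and stress 6 rose, a share near the 23% of all genes, and 3 did without water replicate 1. They were led by Hspa5, the chaperone BiP (1.08 ± 0.38, not called without bicuculline replicate 2, without water replicate 1, without water replicate 2 or with plain library size), Dnajb9 (0.82 ± 0.13), Atf4 (0.57 ± 0.13) and Xbp1 (0.45 ± 0.09). Of 47 cytosolic ribosomal protein genes 3 rose (Rpl19, Rpl24 and Rps3, by 0.33 to 0.35) and 1 fell (Rps18, -0.41), and only 1 rose when one or the other water replicate was left out. The other 43 were not called, so the shares called lie below those of all genes in each direction. Their median was 0.10, and -0.065 with an offset for gene length.

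The MLL/COMPASS complexes carry out H3K4 methylation. Of 21 of their genes tested 9 fell and 2 rose (median -0.11), beside 21.7% lower and 23% higher over all genes. Kmt2a itself, the gene of the protein whose contact MM401 blocks, was at 199 and 211 CPM in water and at 193, 201 and 179 CPM with bicuculline. Its change of -0.10 ± 0.08 was not called (edgeR adjusted p = 0.304), and the groups overlapped. Its sign turned with all 21 libraries (0.047), and it was called with plain library size (-0.18). Since MM401 acts on the protein, the level of Kmt2a RNA is no check of the inhibition. Wdr5, the partner in that contact, went from 19.8 and 21.3 CPM to 15.1, 15.5 and 16.1 CPM (-0.40 ± 0.07, edgeR adjusted p = 0.000114). Pagr1a (-0.47 ± 0.14), Men1 (-0.40 ± 0.11) and Kmt2b (-0.33 ± 0.11) fell, and Kdm6a (0.43 ± 0.08) and Wdr82 (0.22 ± 0.06) rose. Without water replicate 1 Pagr1a (-0.37), Kmt2b (-0.25) and Wdr82 were not called, and Kmt2b was not without bicuculline replicate 3. Of 6 H3K4 demethylase genes Kdm5d fell (-0.20 ± 0.08, edgeR adjusted p = 0.0479), a call lost with DESeq2, with RLE scaling and without any 1 library. Kdm1a, Kdm1b, Kdm5a, Kdm5b and Kdm5c lay at -0.023 to 0.089. From a list of genes known as MLL1 targets in other cells, Meis2 (0.71 ± 0.09), Eya1 (0.57 ± 0.09), Mef2c (0.55 ± 0.10) and Meis1 (0.40 ± 0.09) rose, and Pbx3 was -0.10. At 4 h in DMSO 4 of the 5 tested were called higher too (median 0.42). Hoxa7, Hoxa9 and Hoxa10 had at most 2 counts in any of the 5 libraries.

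Markers of the cell types that such cultures hold were next set side by side, and beside the 23% higher and 21.7% lower of all genes. Projection neuron genes were higher in 15 of 22 and lower in 1 (median 0.44). Fezf2 (1.56 ± 0.17) and Tbr1 (1.53 ± 0.13), transcription factors of deep-layer neurons, rose most, with Tbr1 going from 11.5 and 10.7 CPM to 32.7, 35.4 and 28.5 CPM. Slc17a6, a vesicular glutamate transporter (1.12 ± 0.13), and Bhlhe22 (1.04 ± 0.16) followed, and Neurod2 fell (-0.40 ± 0.16), a call kept in only 1 of the 5 fits without a library, that without bicuculline replicate 3 (-0.50 to -0.31). Genes of GABAergic neurons were higher in 11 of 18 and lower in none (median 0.54). Gad2, which makes GABA, went from 170 and 196 CPM to 344, 357 and 330 CPM (0.91 ± 0.07), and Sp8 (0.86 ± 0.14), Gad1 (0.67 ± 0.09) and Dlx5 (0.60 ± 0.14) rose as well. Adora2a and Drd2 also stand among 12 striatal markers, most of which went the other way. Of these, 8 rose (among them Penk, Tac1, Gpr6, Isl1, Rgs9, Ebf1 and Drd1, by 0.38 to 2.15), Rasd2 fell (-0.56 ± 0.15) and Ppp1r1b was -0.28. With one or the other water replicate left out, 5 of the 12 were called higher. Ebf1 kept its call in 1 of the 5 fits without a library, Drd1 in 2, Gpr6 in all but that without water replicate 1 and Isl1 in all but that without water replicate 2. Their summed level was 167 and 168 CPM in water and 208 to 218 CPM with bicuculline.

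Of the markers of cells other than neurons, those of astrocytes, microglia, the oligodendrocyte lineage and dividing cells included called increases and no called decrease, and those of vessels and fibroblasts were mostly not called. Astrocyte genes were higher in 6 of 12 and lower in none (median 0.45), with Sox9 (1.00 ± 0.17), Gja1 (0.72 ± 0.18) and Aqp4 (0.54 ± 0.13) among them, and their sums were 1612 to 1714 CPM in water and 2064 to 2139 CPM with bicuculline. The microglial marker Tmem119 had at most 8 counts in any library. Microglial genes were higher in 8 of 11 (median 0.52, sum 82.7 to 92.8 against 116 to 128 CPM), with Csf1r at 0.62 ± 0.15 and Cx3cr1 at 0.58 ± 0.14. Oligodendrocyte lineage genes were higher in 5 of 13, led by Olig1 (0.88 ± 0.23), with sums of 185 to 202 against 230 to 245 CPM. Genes of dividing cells were higher in 7 of 11 (median 0.58), among them Mki67 (0.61 ± 0.19), with sums of 60.0 to 70.9 against 93.5 to 97.3 CPM. Of the vessel markers, Ly6c1 was at 0 and Cldn5 had at most 2 counts. Vessel markers (1 higher, 1 lower of 9) summed to 10.2 to 11.6 and 12.3 to 15.2 CPM, and fibroblast markers (1 higher of 8) to 72.6 to 78.1 and 96.7 to 98.4 CPM. In the main fit 23% of all genes were called higher and 21.7% lower. Without water replicate 2, astrocyte, microglial and dividing-cell genes called higher numbered 3 each and oligodendrocyte lineage genes 1, and the last numbered 3 without bicuculline replicate 3. Counts of 3 among 11 or 12 genes are near the 23% of the main fit. Aqp4, Gja1, Olig1 and Mki67 were among those not called without water replicate 2. With plain library size the counts were 4, 5, 5 and 3 in the same order. The part of cell makeup in the changes of other genes was not tested. Dlx1, Sox2, Nptxr and Rps27 were listed at 0 in all 5 libraries, and each overlaps another gene of the table (Dlx1as, Sox2ot, Npcd and Rps27rt), so these zeros are no measure of their level. They were named after their values were seen.

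**Figure D2:**
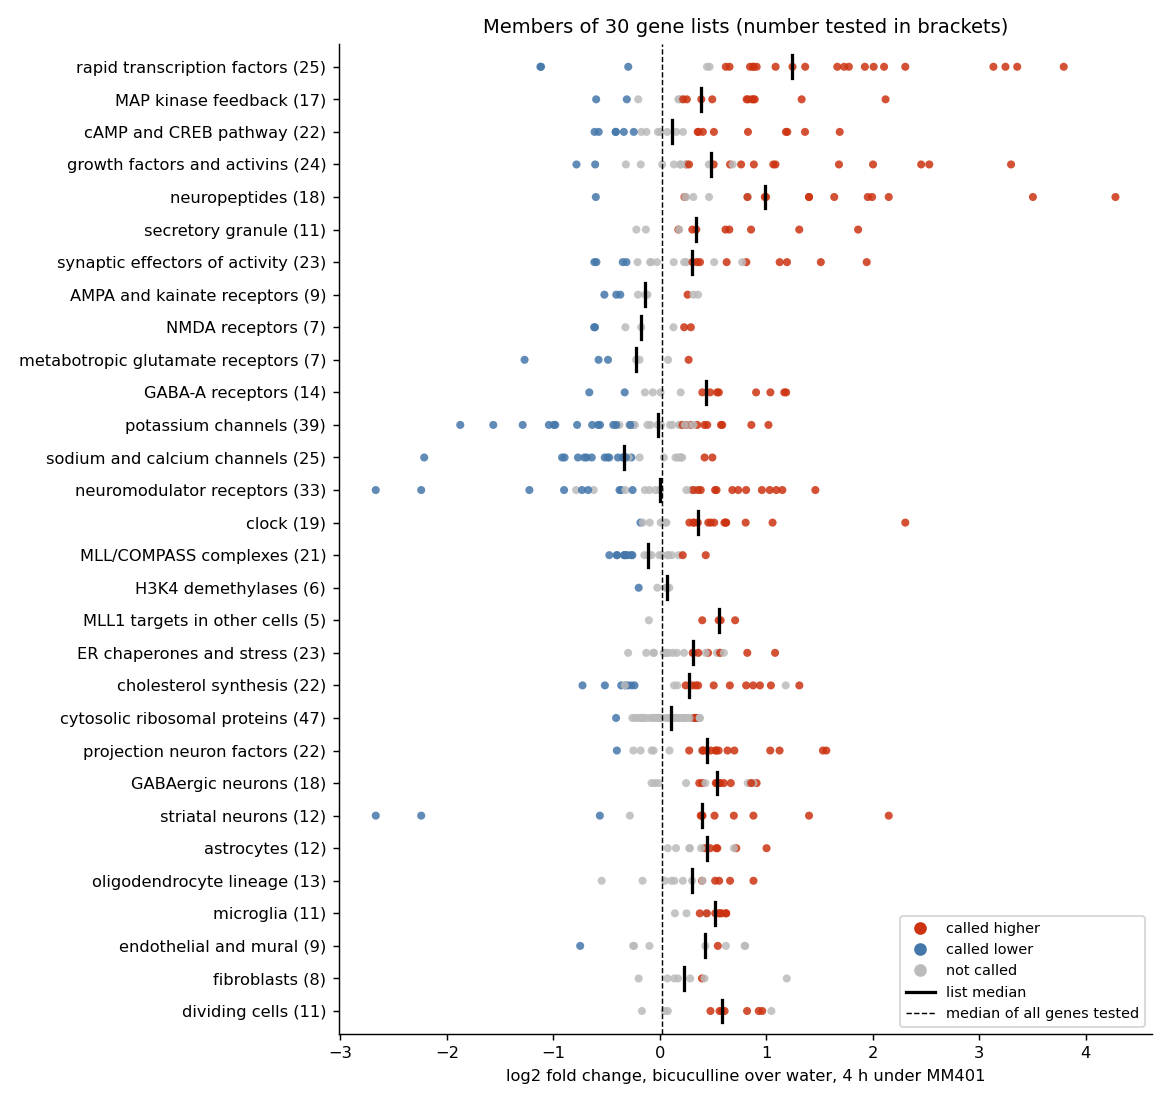
Log2 fold change of bicuculline over water at 4 h under MM401 for the members of 30 gene lists (points; red called higher, blue called lower, grey not called), with each list's median as a bar and the median of all genes, 0.016, as a dashed line. The rapid transcription factors (median 1.25) and neuropeptides (0.99) lie farthest right, and the sodium and calcium channels (-0.34) farthest left.

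Whether the response at 4 h differed from that at 1 h was tested with each time set against water of its own duration, so that no library was shared. Under MM401 at 1 h, 6769 genes were called (39.9%), of which 3070 were higher and 3699 lower (18.1% and 21.8%). With plain library size 1276 were higher and 6541 lower, and the median of all genes moved from -0.0018 to -0.21. The difference of the responses was called for 2187 genes (12.9%), 1038 with the higher value at 4 h (6.12%) and 1149 with the lower (6.78%). With plain library size these were 1748 and 711, and the median difference over all genes moved from 0.042 to 0.18. The count was 1310 without water replicate 1 at 4 h and 1378 without water replicate 2 at 4 h. Of the 3898 genes higher at 4 h, 2112 were also higher at 1 h and 94 were lower then. Of the 3674 genes lower at 4 h, 2150 were lower at 1 h and 91 were higher. For 427 genes that were called higher at 4 h and not called at 1 h, the difference itself was called, and for 559 genes that were called lower at 4 h and not at 1 h.

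Among the 6 largest differences upward, Mctp2 (chromosome 7, 72077829 to 72306595), a membrane protein with C2 domains, was at 13.7 to 14.5 CPM in water at 1 h and at 13.4 to 18.4 CPM with bicuculline. At 4 h it went from 11 and 11.8 CPM to 62.2, 66.9 and 61.8 CPM, a difference between the responses of 2.26 ± 0.17 (edgeR adjusted p = 6.96e-08). Inhba (2.21 ± 0.37), Pim1 (2.15 ± 0.18) and Fgf10 (2.14 ± 0.26) rose at 1 h by 1.09, 0.58 and 0.39 and at 4 h by 3.30, 2.73 and 2.53. Dennd2c was 0.06 at 1 h and 2.14 at 4 h. Medag turned its direction, from -1.01 ± 0.20 at 1 h to 1.15 ± 0.21 at 4 h (0.75 without water replicate 1 and 1.62 without water replicate 2, called in both). Fgf10 at 1 h (edgeR adjusted p = 0.0939) was not called.

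Among the 6 largest differences downward, 3 belonged to the Egr family. Egr4 (chromosome 6, 85511120 to 85513589) was at 33.1, 30.0 and 35.8 CPM with bicuculline at 1 h, and its response fell from 3.45 to 0.62 (difference -2.83 ± 0.28, edgeR adjusted p = 3.00e-06). Egr3 went from 0.96 to -1.12 and so changed direction. Egr1 went from 1.66 to -0.30, but its call at 4 h was lost in 4 of the 5 fits without 1 library (-0.47 to -0.16) and with all 21 libraries. Homer1 (chromosome 13, 93303756 to 93405129) was at 2967, 3060 and 2202 CPM with bicuculline at 1 h and at 563 to 660 CPM at 4 h, a difference of -2.32 ± 0.19. Sidt1 went from 0.40 to -1.60 and Accsl from -0.29 to -2.18. Fosb, whose response at 4 h was still 3.79, had been 5.57 at 1 h.

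By role, the rapid transcription factors held 13 of 25 members whose response was lower at 4 h than at 1 h and none whose response was higher. Synaptic effectors held 9 of 23 lower and 1 higher. Potassium channels held 9 of 39 lower and 4 higher, sodium and calcium channels 6 of 25 lower and 1 higher, and AMPA and kainate receptors 3 of 9 lower. Growth factors and activins held 6 of 24 higher and 1 lower. Over all genes the shares were 6.12% higher and 6.78% lower, so the counts of 1 are near that background. The 12 largest increases and 12 largest decreases were chosen on the 4 h values that enter this difference, which favours a larger response at 4 h, so counts over them only describe them. Of the decreases, 10 had a lower response at 4 h than at 1 h. Drd2, for instance, was at -0.76 ± 0.08 at 1 h and -2.24 ± 0.09 at 4 h. Of the 12 largest increases, Serpinb2, Inhba and Pim1 had the higher response at 4 h and Fosb the lower, and the other 8 had no difference called. For Nts, Atf3, Klf4 and Ifrd1 the differences were 0.023, -0.036, -0.082 and 0.0071, with SEs of 0.14 to 0.24. Of the lists of cell markers, microglial genes were called in 0 of 11 at 1 h against 8 of 11 at 4 h, and the difference was called for 2. Over all genes 39.9% were called at 1 h and 44.6% at 4 h, and the difference for 12.9%.

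**Figure D3:**
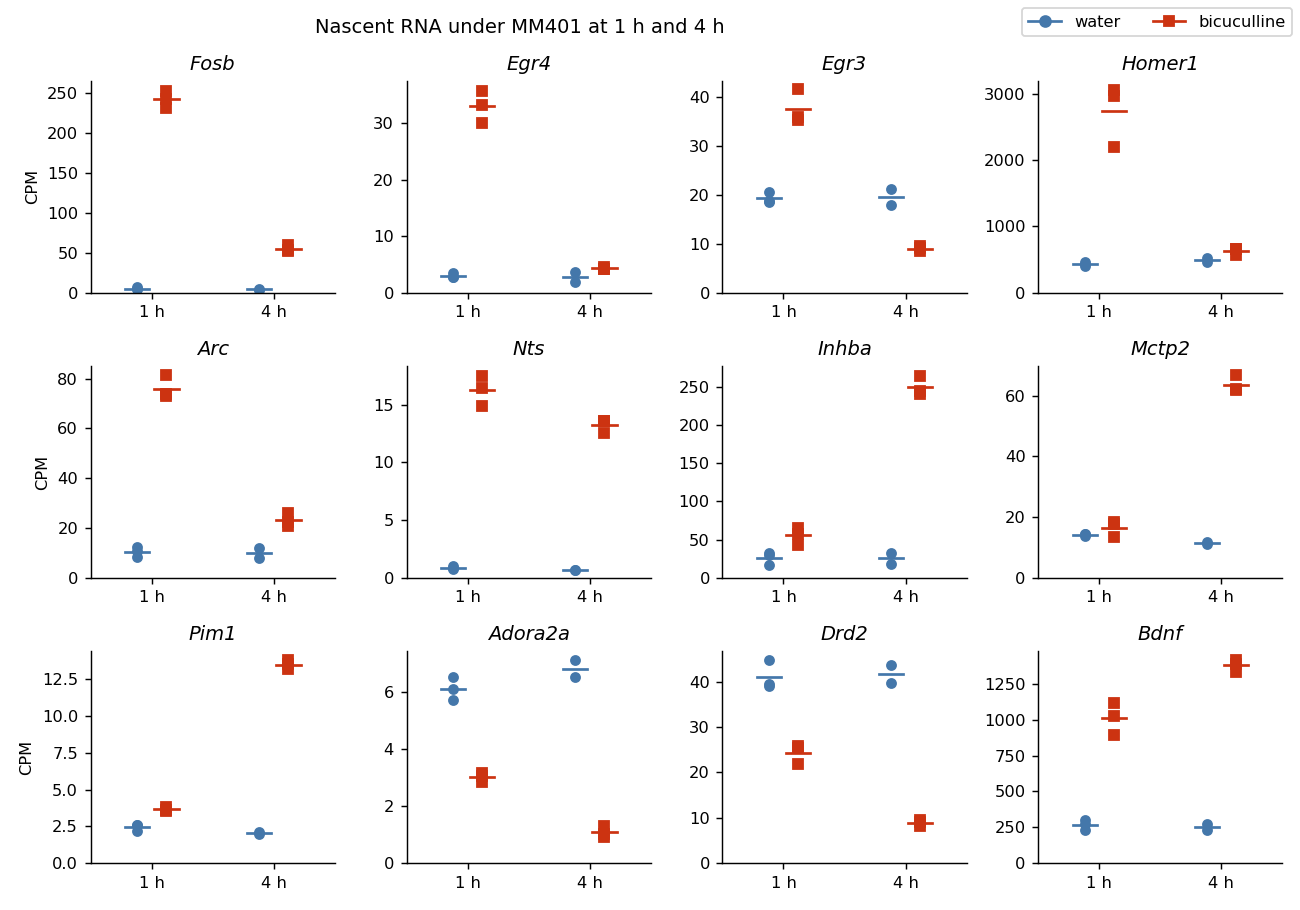
CPM of 12 genes under MM401 at 1 h and 4 h, with a circle for each water library (3 at 1 h, 2 at 4 h), a square for each of 3 bicuculline libraries, and a bar at each mean. Homer1, Egr4 and Fosb are high with bicuculline at 1 h and lower at 4 h, Nts is high at both times, and Mctp2, Pim1 and Inhba are highest at 4 h.

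The 4 h response was last set beside that of cultures without the inhibitor, which share none of these libraries. In DMSO 8344 genes were called (49.2%), with 4014 higher and 4330 lower (23.7% and 25.5%), or 1820 and 7867 with plain library size, which moved the median of all genes from -0.024 to -0.30. All 24 genes with the largest changes under MM401 were called the same way in DMSO. Over all genes, 2844 of the 3898 called higher under MM401 (73.0%) and 2840 of the 3674 called lower (77.3%) were called the same way in DMSO, which is 70.9% and 65.6% of the genes called there. Opposite calls were made for 4 and 7. Across the 16959 genes the 2 sets of log2 fold changes had a Pearson correlation of 0.762, as a description, since genes are not independent replicates. The response in DMSO was 4.22 ± 0.13 for Nts, 3.61 ± 0.15 for Fosb and 3.69 ± 0.26 for Inhba, and -2.83 ± 0.16 for Adora2a and -2.06 ± 0.08 for Drd2. The 12 largest decreases, chosen on their MM401 values, lay at -2.83 to -0.99 in DMSO. The difference between the arms was called for none of 16959 genes with edgeR, with 2552 at an unadjusted p below 0.05 (15%), and for 19 with DESeq2. Without replicate 1 of DMSO with water it was called for 1551 genes. For Nts the difference was 0.063 ± 0.22, and for Adora2a 0.16 ± 0.25, each smaller than its SE.

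Over all genes 23.7% were higher and 25.5% lower in DMSO, and 23% and 21.7% under MM401. Of the gene lists, sodium and calcium channels had 8 of 25 higher and 10 lower in DMSO, against 2 and 15 under MM401, with medians of 0.023 and -0.34. Astrocyte genes had 2 of 12 higher in DMSO against 6 under MM401 (medians -0.017 and 0.45), and H3K4 demethylase genes 4 of 6 higher against none. No member of any of the 30 lists was called in the difference between the arms, so none of these contrasts was shown to differ.

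**Figure D4:**
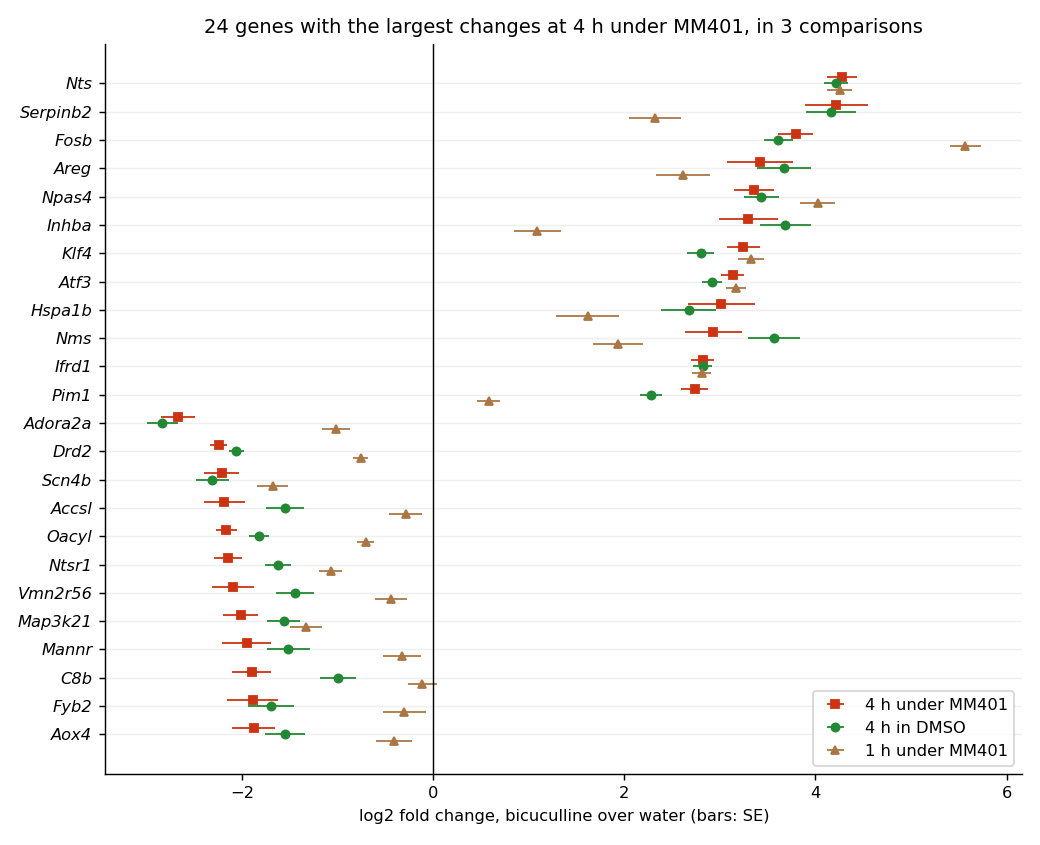
Log2 fold change of bicuculline over water (bars, SE) for the 24 genes with the largest changes at 4 h under MM401 (squares), beside the same genes at 4 h in DMSO (circles) and at 1 h under MM401 (triangles). Squares and circles lie on the same side for all 24 genes; triangles for most decreases lie nearer to 0, as for C8b at -0.11 against -1.90.

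Whole-gene counts of nascent RNA are dominated by long genes. Genes of at least 100 kb held 61.4% and 61.3% of counts in the water libraries and 60.9%, 60.8% and 58.4% in the bicuculline libraries, so that bicuculline replicate 3 stood apart from the other 4. Genes of at least 200 kb held 43.0% and 42.5% in water and 41.5%, 41.3% and 38.6% with bicuculline, so there all 3 bicuculline libraries lay lower. The share of genes called higher was 17% below 10 kb, 20.1% from 10 to 30 kb, 27.5% from 30 to 100 kb, 35.6% from 100 to 200 kb and 27.0% at 200 kb or more. Genes called lower made up 12.2%, 24.3%, 26.0%, 23.6% and 26.7% of the same classes. Their median log2 fold changes were 0.054, -0.027, 0.016, 0.093 and -0.014. A share called also depends on how many reads the genes hold, so it does not give the size of the response. For the sodium and calcium channels, the fit with an offset for gene length called 17 of 25 lower and 4 higher (median -0.34), and the fits that left out 1 library each called 11 to 13 lower.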

How the data were processed

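The values are unnormalised read counts from a table the authors deposited, with 24984 genes as rows. Per the file headers, these counts came from featureCounts over whole gene spans on mm10; the submitters' processing notes also name Bowtie2, UMI-tools, deepTools and DESeq2, without versions. Strand use is not given in the sources used here. For 412 genes with several positions the single summed count was used. The count of sample columns left unused was 0.

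The tests used edgeR 4.0.16 (R 4.3.3). Here filterByExpr by group (minimum count 10, minimum total 15) kept 16959 genes, and 20 libraries of 7 groups entered a robust quasi-likelihood fit of group means with TMM scaling, without the shallow library. Its common biological coefficient of variation was 8.77%. SEs are the log2 fold change over the root of F. In simulated counts for the main comparison (16698 genes), 100 of 100 genes changed 2-fold and 100 of 100 changed 4-fold were called, with 10 unchanged genes called. The changed genes were drawn only from well-covered genes, and all genes were given that common coefficient as their spread. The recovery thus checks the fit and does not describe genes with few reads or a wider spread. The 4 pairs of replicates had chi-square values per degree of freedom of 7.34 to 22.1, so none was a duplicate. Alternatives were DESeq2 1.42.0, other scalings, filters and sets of libraries, each library left out, and the replicate number as a block.

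The members and lists were chosen with earlier results of these data known, from general knowledge of the field. Named genes were the 12 largest called changes per direction whose higher group averaged 2 CPM or more, without overlap of libraries, the 6 largest differences from 1 h per direction, 10 always-named genes, all members of lists of up to 12 genes and otherwise up to 4 called members per direction, leaving out unnamed predicted genes, small RNAs, mitochondrial genes and ribosomal pseudogenes. The 30 lists are those shown in the plot of gene lists. Values of a few list members are not reported here.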

Additional observations from a re-analysis of the deposited data

Results flagged for a closer look

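The response to bicuculline under MM401 differed between 4 h and 1 h for 2187 genes by edgeR's test of the difference (adjusted p below 0.05), and for the following named genes. The values are the log2 response at 4 h minus that at 1 h. Upward they were 2.26 for Mctp2, 2.21 for Inhba, 2.16 for Medag, 2.15 for Pim1, 2.14 for Fgf10, 2.08 for Dennd2c, 1.90 for Serpinb2 and 0.53 for Bdnf. Downward, among activity-induced genes, they were -2.83 for Egr4, -2.32 for Homer1, -2.08 for Egr3, -1.95 for Egr1, -1.78 for Fosb, -1.66 for Arc, -1.37 for Fos and -1.02 for Nr4a1. Among genes lower at 4 h they were -1.99 for Sidt1, -1.90 for Accsl, -1.78 for C8b, -1.65 for Adora2a, -1.65 for Vmn2r56, -1.62 for Mannr, -1.58 for Fyb2, -1.48 for Drd2, -1.47 for Aox4, -1.46 for Oacyl and -1.07 for Ntsr1. Neither group of the comparison has 4 libraries, so no library was tested as an outlier.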

How the results depend on the processing

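The count of 7572 genes called at 4 h under MM401 was 5491 to 6977 when each library was left out in turn, and 5898 to 8265 under the other alternatives (5898 with all 21 libraries). The difference between 4 h and 1 h was called for 2187 genes, for 886 with all 21 libraries, and for 1310 to 2495 without single libraries. The difference between the arms was called for no gene, for 19 with DESeq2, and for 0 to 1551 without single libraries; without water replicate 1 under MM401 it was 2. Of 657 values of 45 gene results, 647 kept their direction and side of the threshold, 5 lost and 4 gained the call, and Kmt2a turned to 0.047 with all 21 libraries; the cause was not tested. With the replicate number as a block 7892 genes were called at 4 h, and 0 for the difference between the arms (2616 at an unadjusted p below 0.05). Same-numbered libraries of the main comparison had correlations of their deviations of 0.082 and 0.010, so the numbers were not taken as pairs. Between the bicuculline libraries of both arms all 3 correlations were over 0.1 (0.11 to 0.17), and between their water libraries they were 0.062 and 0.014. Depth limits genes near 1 CPM, and the 2 water libraries limit every value.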
